A study of Mus musculus with 4 samples.

Results

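The nuclear-encoded subunits of the respiratory chain and of ATP synthase were examined in mouse liver. Their genes were taken as the protein-coding genes whose mouse symbols start with Nduf, Uqcr, Atp5 or Cox followed by 4, 5, 6, 7 or 8, together with Sdha, Sdhb, Sdhc, Sdhd and Cyc1, leaving out assembly factors. This gave 85 genes of the 48709 counted, with 36 in complex I, 4 in complex II, 9 in complex III, 20 in complex IV and 16 in complex V, which is ATP synthase. Ndufa4 and Ndufa4l2 were placed with complex IV, of which the Ndufa4 protein is a subunit. Atp5s has a fitting symbol but encodes no structural subunit and was left out.

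Messenger RNA of liver was sequenced from untreated C57BL/6 mice, with 2 libraries labelled WT and 2 labelled DDI2-KO, each library labelled as its own replicate. Both genotypes carry the floxed Ddi2 alleles on both chromosomes (flox/flox), and only the DDI2-KO mice (genotype DDI2-/-) also carry Cre recombinase, driven by the albumin promoter, so the WT mice are littermates without Cre. The albumin promoter acts in hepatocytes, and the sources used here do not state which other cells of the liver keep the gene. The mice of the study as a whole, of both sexes, were aged 6 to 12 weeks, and the age and sex of each mouse sequenced were not given in the sources used here. Y chromosome genes had 0 reads in all 4 libraries (Kdm5d, Uty, Ddx3y and Eif2s3y). DDI2 is an aspartic protease, and the comparison asks which liver transcripts differ when hepatocytes lack it.

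The respiratory chain sits in the inner mitochondrial membrane and passes electrons from NADH (complex I) and succinate (complex II) through ubiquinone, complex III and cytochrome c to oxygen at complex IV, while complexes I, III and IV pump protons and complex V uses the proton gradient to make ATP. Complexes I, III, IV and V are built from proteins of both genomes, a small core encoded by mitochondrial DNA and many more subunits encoded in the nucleus, whereas complex II is encoded in the nucleus alone. Hepatocytes are rich in mitochondria and draw on this chain for gluconeogenesis, urea synthesis and fatty acid oxidation.

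Sequencing gave 34109018 and 31532247 gene-assigned reads for the WT libraries, against 25582344 and 22501208 for those labelled DDI2-KO. Levels are given as CPM, counts scaled to library size with TMM adjustment, and levels of different genes are compared only as CPM per kilobase of transcript. The detection floor was set at 3 counts, between 0.0880 and 0.133 CPM before TMM adjustment, depending on the library. Ddi2, the targeted gene, had 4749 and 3812 reads in the WT libraries, against 4068 and 3777 in those labelled DDI2-KO. Scaled to library size, this was 141 and 123 CPM in WT, against 157 and 164 CPM in the DDI2-KO-labelled libraries, with a log2 fold change of 0.28 (SE 0.17, edgeR quasi-likelihood test, Benjamini-Hochberg adjusted p = 0.349). Its level was thus not lower in the DDI2-KO-labelled libraries. The deposited counts cover whole genes, and the text of the sources used here does not give how much of Ddi2 is floxed. This count therefore checks neither label. The study states that its animals were genotyped by PCR around each experiment, and it probed DDI2 protein in liver by immunoblot. By real-time PCR, the study found lower Mt1 and Mt2 in the liver of DDI2-KO mice. Both genes had fewer reads in the DDI2-KO-labelled libraries (given below), which does not measure the deletion itself. All directions below are drawn from the labels of the libraries. Hepatocyte markers were present in every library, with Alb as the most abundant, and the 7 markers summed to 158209 and 182829 CPM in the WT libraries, against 148361 and 152839 CPM in the DDI2-KO-labelled libraries. In bulk liver RNA, fewer cells of a type and less RNA per cell cannot be told apart.

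Within WT liver, the subunit genes spanned a wide range of levels per length. Atp5b, the catalytic beta subunit of the ATP synthase head, had the highest level at 523 ± 66.6 CPM per kilobase (SD, n = 2). It was followed by Ndufa4 at 323 ± 10.4, Atp5a1 at 276 ± 23.2, Cox4i1 at 271 ± 18.9 and Uqcrh at 264 ± 37.9 CPM per kilobase, and the levels of Atp5a1, Cox4i1 and Uqcrh did not differ beyond their spread. The highest level in complex I was that of Ndufa6, a small accessory subunit, at 145 ± 17.5 CPM per kilobase, not distinguishable from that of Ndufb9 at 141 ± 15.5. In complex II it was that of Sdhd, which anchors the complex in the membrane, at 141 ± 11.5 CPM per kilobase, not distinguishable from the flavoprotein gene Sdha at 140.4 ± 5.84. At the other end, 6 genes did not pass the filter on low counts, namely Cox4i2, Cox6a2, Cox6b2, Cox7b2, Cox8b and Cox8c, all isoforms of complex IV subunits known from lung, muscle, testis or other tissues. They had at most 6 reads in any library of either group, and Cox7b2 and Cox8c had 0 in all 4.

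Across the 79 subunit genes that were tested, 8 rose in the DDI2-KO-labelled libraries and 0 fell with Benjamini-Hochberg adjusted p-values under 0.05 over 13699 genes in the edgeR quasi-likelihood test. The 8 genes are 10.1% of the tested subunits, against 1.33% of all tested genes that rose and 1.2% that fell (182 and 164 genes, or 126 and 191 with upper-quartile factors). Transcripts of under 1000 bases belong to 52 of the tested subunits and to 6 of the 8 that rose, and of all tested genes that short 3.54% rose, against 1.12% of the longer ones. The subunits that rose encode subunits of complex I (Ndufb6, Ndufc1, Ndufs4), complex III (Uqcrfs1), complex IV (Cox5a) and ATP synthase (Atp5e, Atp5g3, Atp5mpl). Counting values whatever their p, 65 subunits were higher and 14 lower. The median log2 fold change was 0.47, with the middle of the list between 0.12 and 0.66 (quartiles), beside a median of -0.015 over all tested genes, with quartiles of -0.34 and 0.28. Both of the DDI2-KO-labelled libraries lay above both WT libraries for 50 subunits, or 63.3%, against 28% of all tested genes, and below them for 8, or 10.1%, against 27.7%. At an unadjusted p under 0.05 from the edgeR test, 40 subunits were higher and 2 lower, beside 12% and 11.5% of all tested genes. DESeq2 called 23 higher and 0 lower, and limma-voom and limma-trend each called 6 higher and 0 lower. Of all tested genes, 3.71% were called higher by DESeq2, 0.526% by limma-voom and 0.54% by limma-trend.

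The number that rose depended on single libraries. It was 2 without WT library 1, 3 without WT library 2 and 15 without library 2 labelled DDI2-KO, and Atp5g3 and Cox5a were called in every alternative. Of all tested genes, 0.539%, 0.547% and 2.05% were called higher in these fits. With offsets for GC content and transcript length it was 13, and without the filter on low counts 26, where Ndufa4l2 was called lower, beside 3.09% and 3.75% of all tested genes called higher. With 1 library left in a group, the fit assumes that it varies like the other group. The subunits also shifted together between libraries of the same genotype. Of the 79 tested, 76 had a higher level in WT library 2 than in WT library 1, or 96.2% against 50.2% of all tested genes, with a median log2 ratio of 0.19. In the DDI2-KO-labelled libraries, 62 were lower in library 2 than in library 1, or 78.5% against 49.98%, with a median log2 ratio of -0.17. The subunits share these libraries and are not independent measures of the genotype.

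**Figure D1:**
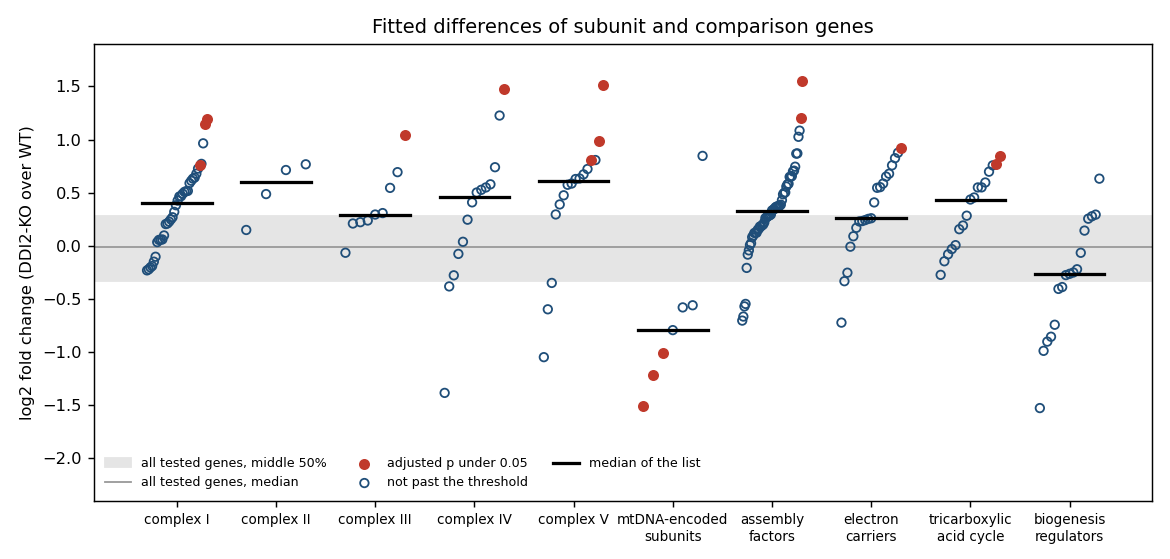
Fitted log2 fold change (DDI2-KO over WT, y axis) of each tested subunit gene by complex, and of comparison lists. Filled points have an adjusted p under 0.05, black bars are medians, and the grey band and line are the middle 50% and the median of all tested genes. The medians of complexes I to V lie between 0.29 and 0.61, and that of the subunits encoded by mitochondrial DNA at -0.79.

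Complex I takes electrons from NADH through a peripheral arm, made of the N module that oxidises NADH and the Q module that reduces ubiquinone, to a membrane arm that pumps protons. All 36 of its nuclear genes were tested, and 3 rose and 0 fell. Values were higher for 30 and lower for 6, with a median log2 fold change of 0.40. In the same test, 16 higher and 0 lower values had an unadjusted p under 0.05, and DESeq2 called 8 higher and 0 lower, and limma-voom and limma-trend each 2 and 0. Ndufs4 (ENSMUSG00000021764, chr13:114287795-114388258), an accessory subunit at the N module whose loss in mice is a model of Leigh syndrome, had 1316 and 1306 reads in the WT libraries, against 1694 and 1662 in those labelled DDI2-KO (coordinates of genes are those of GRCm38). This was 40.7 ± 2.21 CPM (SD, n = 2) in WT, against 68.9 ± 4.86 CPM (SD, n = 2) in the DDI2-KO-labelled libraries, with no overlap between the groups. Its log2 fold change was 0.76 (SE 0.15, edgeR quasi-likelihood test, Benjamini-Hochberg adjusted p = 0.0472). Ndufs4 was past the threshold in 9 of 16 alternatives, and not with limma-voom, limma-trend, upper-quartile factors, a minimum mean of 1 CPM, estimation without the robust option or either WT library left out. Its Benjamini-Hochberg adjusted p in the edgeR quasi-likelihood test was 0.258 without WT library 1 and 0.161 without WT library 2, within a range of 0.00290 to 0.258 over the alternatives.

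The other complex I genes that rose encode small subunits of the membrane arm. Ndufb6 (ENSMUSG00000071014, chr4:40270591-40279421) had levels of 15.8 and 15.3 CPM in WT, against 37.2 and 31.7 CPM in the DDI2-KO-labelled libraries, with no overlap and little spread within WT. It rose by a log2 fold change of 1.15 (SE 0.17, edgeR quasi-likelihood test, Benjamini-Hochberg adjusted p = 0.0239). For Ndufb6 the Benjamini-Hochberg adjusted p in the edgeR quasi-likelihood test was 0.0854 without WT library 1 and 0.0753 without WT library 2, within a range of 1.12e-05 to 0.0854 over the alternatives. Ndufc1 (ENSMUSG00000037152, chr3:51404677-51408988) was measured at 8.60 and 11.4 CPM in WT, against 22.8 and 22.9 CPM in the DDI2-KO-labelled libraries. The groups did not overlap, although the WT libraries differed from each other. For Ndufc1 the log2 fold change was 1.19 (SE 0.19, edgeR quasi-likelihood test, Benjamini-Hochberg adjusted p = 0.0337), the highest in the complex, and the Benjamini-Hochberg adjusted p in the edgeR quasi-likelihood test was 0.137 without WT library 1, within a range of 2.51e-05 to 0.137 over the alternatives. The lowest was that of Ndufa13, another membrane arm subunit, at -0.23 (SE 0.27, edgeR quasi-likelihood test, Benjamini-Hochberg adjusted p = 0.648). Its levels, 69.8 and 85.2 CPM in WT, against 83.9 and 48.1 CPM in the DDI2-KO-labelled libraries, overlapped, library 2 labelled DDI2-KO was the lowest of the 4, and without that library the log2 fold change was 0.12.

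By module, medians were 0.38 over 9 genes of the N module, 0.27 over 7 of the Q module and 0.44 over 20 of the membrane arm. The 7 nuclear-encoded core subunits, among them those with the flavin, the iron-sulfur clusters or the quinone site, all had higher values, from 0.060 to 0.68. Of these 7, 0 passed the threshold in edgeR's test, with 4 at an unadjusted p under 0.05. For these core subunits, DESeq2 called 2 higher and 0 lower, and limma-voom and limma-trend each 0 and 0. The 29 accessory subunits ranged from -0.23 to 1.19. Ndufa6 had 78.5 and 93.1 CPM in WT, against 117 and 81.9 CPM in the DDI2-KO-labelled libraries, overlapping groups and a log2 fold change of 0.21 (SE 0.21, edgeR quasi-likelihood test, Benjamini-Hochberg adjusted p = 0.590), which turned without library 1 labelled DDI2-KO (-0.064).

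Complex II, succinate dehydrogenase, links the respiratory chain to the tricarboxylic acid cycle. Its 4 genes all had higher values, and 0 passed the threshold in edgeR's test. In that test 3 higher and 0 lower values had an unadjusted p under 0.05, and DESeq2 called 2 higher and 0 lower, and limma-voom and limma-trend each 0 and 0. Sdhc and Sdhd, which anchor the complex in the membrane and bind the haem, had the larger differences. Levels of Sdhc were 84.4 and 80.0 CPM in WT, against 155 and 125 CPM in the DDI2-KO-labelled libraries, and its log2 fold change was 0.77 (SE 0.18, edgeR quasi-likelihood test, Benjamini-Hochberg adjusted p = 0.0613). Sdhd measured 164 and 184 CPM in WT, against 295 and 275 CPM in the DDI2-KO-labelled libraries, with a log2 fold change of 0.71 (SE 0.17, edgeR quasi-likelihood test, Benjamini-Hochberg adjusted p = 0.0668). In both genes the groups did not overlap. Sdhb, the iron-sulfur subunit, had the smallest difference, at 0.15 (edgeR quasi-likelihood test, Benjamini-Hochberg adjusted p = 0.742), and its levels, 113 and 136 CPM in WT, against 168 and 108 CPM in the DDI2-KO-labelled libraries, overlapped. Without library 1 labelled DDI2-KO its direction turned, to -0.20.

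Complex III passes electrons from ubiquinol to cytochrome c. Of its 9 nuclear genes, 1 rose and 0 fell, and 8 had higher values. Here, 3 higher and 0 lower values had an unadjusted p under 0.05, and DESeq2 called 2 higher and 0 lower, and limma-voom and limma-trend each 1 and 0. Uqcrfs1 (ENSMUSG00000038462, chr13:30540308-30545362) encodes the Rieske iron-sulfur protein, which takes the electron from ubiquinol, and had 3064 and 3188 reads in the WT libraries, against 5496 and 4299 in those labelled DDI2-KO. The levels, 97.2 ± 8.52 CPM (SD, n = 2) in WT, against 199.7 ± 17.9 CPM (SD, n = 2) in the DDI2-KO-labelled libraries, did not overlap. It rose by a log2 fold change of 1.04 (SE 0.17, edgeR quasi-likelihood test, Benjamini-Hochberg adjusted p = 0.0338). The Benjamini-Hochberg adjusted p in the edgeR quasi-likelihood test was 0.137 without WT library 1 and 0.0630 without WT library 2, within a range of 2.05e-05 to 0.137 over the alternatives. Cyc1, cytochrome c1, the other electron-carrying subunit, had 106 and 118 CPM in WT, against 188 and 173 CPM in the DDI2-KO-labelled libraries, and a log2 fold change of 0.69 (SE 0.17, edgeR quasi-likelihood test, Benjamini-Hochberg adjusted p = 0.0668). The 5 small accessory subunits had smaller differences, from -0.066 to 0.31. Among them Uqcrh, the hinge protein and the most abundant per length, had 129.7 and 159 CPM in WT, against 188 and 169 CPM in the DDI2-KO-labelled libraries, and a log2 fold change of 0.31 (SE 0.18, edgeR quasi-likelihood test, Benjamini-Hochberg adjusted p = 0.342). Uqcr11, the lowest of the complex at -0.066 (edgeR quasi-likelihood test, Benjamini-Hochberg adjusted p = 0.934), had 47.8 and 55.7 CPM in WT, against 67.6 and 31.2 CPM in the DDI2-KO-labelled libraries, with the highest and the lowest level both in DDI2-KO-labelled libraries, and its direction turned without library 2 labelled DDI2-KO (0.39), without WT library 2 and under the offsets for GC content.

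**Figure D2:**
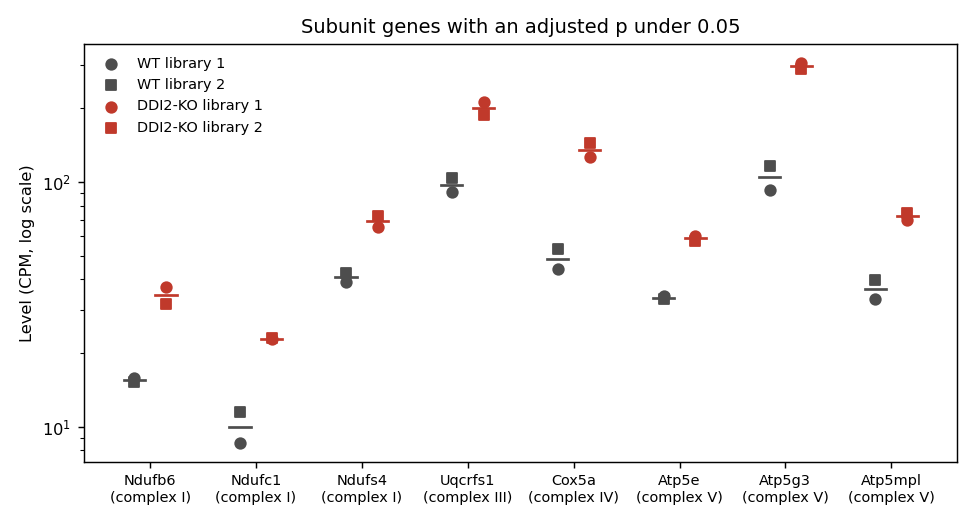
Level in CPM (y axis, log scale) of the 8 subunit genes with an adjusted p under 0.05 in each of the 4 libraries. Points are libraries and bars group means (n = 2), and both DDI2-KO-labelled libraries lie above both WT libraries for every gene shown, for example Atp5g3 at 306 and 289.6 against 92.2 and 116 CPM.

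Complex IV, cytochrome c oxidase, has its catalytic core encoded by mitochondrial DNA and a shell of nuclear subunits, several of which exist as isoforms for different tissues. Of its 20 nuclear genes 14 were tested. Of these, 1 rose and 0 fell, with 10 higher and 4 lower values. In this complex 8 higher and 1 lower values had an unadjusted p under 0.05, and DESeq2 called 2 higher and 0 lower, and limma-voom and limma-trend each 1 and 0. Cox5a (ENSMUSG00000000088, chr9:57521274-57532426), a subunit on the matrix side that is needed for assembly of the complex, had 1479 and 1643 reads in the WT libraries, against 3267 and 3309 in those labelled DDI2-KO. Its levels were 48.6 ± 6.50 CPM (SD, n = 2) in WT, against 135 ± 12.6 CPM (SD, n = 2) in the DDI2-KO-labelled libraries, with no overlap. The log2 fold change of Cox5a was 1.48 (SE 0.18, edgeR quasi-likelihood test, Benjamini-Hochberg adjusted p = 0.0169), and its Benjamini-Hochberg adjusted p-values in the alternatives to that edgeR test ran from 7.68e-10 to 0.0423. Of the stretches of 50 bases in its transcript, 32.0% are found as well in transcripts annotated to other genes, mostly of a gene that overlaps the same locus (Gm26631), so its count carries that uncertainty. Ndufa4, the most abundant gene of the complex per length, had 143 and 149 CPM in WT, against 244 and 244 CPM in the DDI2-KO-labelled libraries, and a log2 fold change of 0.74 (SE 0.16, edgeR quasi-likelihood test, Benjamini-Hochberg adjusted p = 0.0570).

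The isoform of each pair that is usual in liver made up nearly the whole level per length. Cox4i1 accounted for at least 99.9% of the Cox4 level in every library, and Cox6b1 for at least 99.8% of the Cox6b level. Cox6a2 had at most 1 read in any library beside Cox6a1. Beside Cox8a, Cox8b had at most 1 read in any library and Cox8c had 0. Within these, Cox4i1 had a log2 fold change of 0.53, Cox6b1 of 0.55 and Cox8a of 0.50, with Benjamini-Hochberg adjusted p-values of 0.167, 0.120 and 0.112 in the edgeR quasi-likelihood test. Cox6a1 was at 0.038 and turned to -0.015 with upper-quartile factors, and it turned too without WT library 1 and without library 1 labelled DDI2-KO. In the Cox7a family, Cox7a2 had 76.6 and 96.0 CPM in WT, against 134 and 124 CPM in the DDI2-KO-labelled libraries, and a log2 fold change of 0.58 (SE 0.18, edgeR quasi-likelihood test, Benjamini-Hochberg adjusted p = 0.110), whereas Cox7a2l, the form that takes part in supercomplexes of complexes III and IV, stood at -0.076 (SE 0.17, edgeR quasi-likelihood test, Benjamini-Hochberg adjusted p = 0.818) and turned to 0.058 without WT library 2. The share of Cox7a2 in the family was 63.9% and 64.7% in WT, against 73.7% and 72.8% in the DDI2-KO-labelled libraries, which did not overlap.

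A pair of isoforms known from other tissues were detected at low levels. Cox7a1, the form of heart, muscle and brown fat, had 16 and 28 reads in the WT libraries, against 43 and 36 in those labelled DDI2-KO, the groups not overlapping, with a log2 fold change of 1.23 (SE 0.42, edgeR quasi-likelihood test, Benjamini-Hochberg adjusted p = 0.135). Ndufa4l2, a hypoxia-inducible paralog of Ndufa4, had 73 and 68 reads in the WT libraries, against 25 and 16 in those labelled DDI2-KO. The groups did not overlap, and its log2 fold change of -1.38 (SE 0.35, edgeR quasi-likelihood test, Benjamini-Hochberg adjusted p = 0.0732) was the lowest of all tested subunits and the lower value nearest to the threshold. Of the defining markers of brown adipocytes and skeletal muscle, Ucp1 had 0 reads in 3 libraries and 2 in library 2 labelled DDI2-KO, and Ckm, Acta1, Mb and Pvalb had 0 in all 4. Of the other genes of these lists, Mylpf had 24 and 20 reads in the WT libraries, against 24 and 15 in those labelled DDI2-KO. Elovl3 had 84 and 2 reads in the WT libraries, against 68 and 5 in those labelled DDI2-KO, and varied widely within each group.

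Complex V makes ATP in its F1 head, which is held by a peripheral stalk and turned through a central stalk by the ring of c subunits in the membrane. Of its 16 genes, 3 rose and 0 fell, and values were higher for 13 and lower for 3. Among these, 10 higher and 1 lower values had an unadjusted p under 0.05, and DESeq2 called 9 higher and 0 lower, and limma-voom and limma-trend each 2 and 0. In the head and central stalk, Atp5e (ENSMUSG00000016252, chr2:174461072-174464105), the epsilon subunit, had 1145 and 1024 reads in the WT libraries, against 1554 and 1322 in those labelled DDI2-KO. This was 33.6 ± 0.645 CPM (SD, n = 2) in WT, against 58.8 ± 1.78 CPM (SD, n = 2) in the DDI2-KO-labelled libraries, close within each group. Its log2 fold change was 0.81 (SE 0.15, edgeR quasi-likelihood test, Benjamini-Hochberg adjusted p = 0.0417), and it did not pass with limma-voom, limma-trend or estimation without the robust option. The Benjamini-Hochberg adjusted p in the edgeR quasi-likelihood test was 0.187 without WT library 1 and 0.172 without WT library 2, within a range of 0.00140 to 0.187 over the alternatives. Atp5b, the most abundant subunit gene of all per length, had 912 and 1092 CPM in WT, against 1548 and 1459 CPM in the DDI2-KO-labelled libraries, without overlap, and a log2 fold change of 0.59 (SE 0.18, edgeR quasi-likelihood test, Benjamini-Hochberg adjusted p = 0.108). The peripheral stalk genes Atp5f1, Atp5h, Atp5j and Atp5o all had higher values without overlap, from 0.30 to 0.67, and 0 passed the threshold in edgeR's test, with 3 at an unadjusted p under 0.05. In the stalk, DESeq2 called 3 higher and 0 lower, and limma-voom and limma-trend each 0 and 0.

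Subunit c is encoded by 3 genes, Atp5g1, Atp5g2 and Atp5g3, whose proteins differ in their import sequences but are the same once imported. Atp5g3 (ENSMUSG00000018770, chr2:73908447-73911326) had 3100 and 3599 reads in the WT libraries, against 7913 and 6656 in those labelled DDI2-KO. Its levels were 104 ± 17.2 CPM (SD, n = 2) in WT, against 298 ± 11.4 CPM (SD, n = 2) in the DDI2-KO-labelled libraries, a 2.85-fold difference without overlap. The log2 fold change was 1.51 (SE 0.19, edgeR quasi-likelihood test, Benjamini-Hochberg adjusted p = 0.0185), the highest of all tested subunits, and its Benjamini-Hochberg adjusted p-values in the alternatives to that edgeR test ran from 8.99e-11 to 0.0390. None of the stretches of 50 bases in its transcript occur in transcripts annotated to other genes. Atp5g1 had 14.7 and 17.96 CPM in WT, against 29.6 and 27.6 CPM in the DDI2-KO-labelled libraries, without overlap, and a log2 fold change of 0.81 (SE 0.18, edgeR quasi-likelihood test, Benjamini-Hochberg adjusted p = 0.0543), the higher value nearest to the threshold. Atp5g2 had 38 and 42 reads in the WT libraries, against 11 and 18 in those labelled DDI2-KO, and a log2 fold change of -1.05 (SE 0.44, edgeR quasi-likelihood test, Benjamini-Hochberg adjusted p = 0.1996). Since 100% of the Atp5g2 stretches and 66% of those of Atp5g1 occur in transcripts annotated to other genes, with a processed pseudogene as the largest source for each, their counts are uncertain. Atp5g3 made up 82.6% and 83.1% of the level of the 3 genes per length in WT and 89.4% and 89.4% in the DDI2-KO-labelled libraries. Atp5mpl (ENSMUSG00000021290, chr12:111961375-111966977), a small membrane protein of the Fo part, was at 33.4 and 39.6 CPM in WT, against 70.1 and 74.3 CPM in the DDI2-KO-labelled libraries. The groups did not overlap, and its log2 fold change was 0.98 (SE 0.16, edgeR quasi-likelihood test, Benjamini-Hochberg adjusted p = 0.0338). For Atp5mpl the Benjamini-Hochberg adjusted p in the edgeR quasi-likelihood test was 0.167 without WT library 1 and 0.0617 without WT library 2, within a range of 9.17e-05 to 0.167 over the alternatives.

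**Figure D3:**
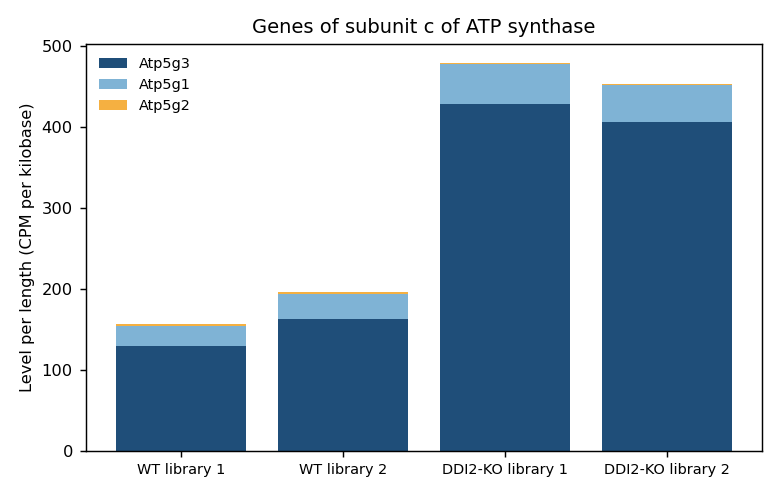
Level of the 3 genes of subunit c per transcript length (CPM per kilobase, y axis) in each library, stacked. Atp5g3 is at 129 and 163 CPM per kilobase in WT, against 428 and 406 in the DDI2-KO-labelled libraries.

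Promoters are shown for subunit genes that rose, a direction by which they were picked. RefSeq promoter windows (build GRCm38.p6), from 250 bases before to 50 after the start of transcription, were matched to 68 of the 85 subunit genes, with 73 windows in all. The motifs searched on both strands were GCGCATGC (nuclear respiratory factor 1, the product of Nrf1), CCGGAAG (GABPA and other ETS factors), AANATGGCG (YY1) and TGANNNNGC (the antioxidant response element, which the NRF1 protein of Nfe2l1 can bind), and overlapping matches were allowed. Of the 7 genes that rose and have a window, the 4 with a match are printed, and Atp5g3, the gene with the highest log2 fold change, beside them. All lie on the minus strand, Ndufb6 at chr4:40279372-40279671, Ndufc1 at chr3:51408906-51409205, Ndufs4 at chr13:114388045-114388344, Atp5e at chr2:174464052-174464351 and Atp5g3 at chr2:73911277-73911576, and capitals mark the matches.
Ndufb6: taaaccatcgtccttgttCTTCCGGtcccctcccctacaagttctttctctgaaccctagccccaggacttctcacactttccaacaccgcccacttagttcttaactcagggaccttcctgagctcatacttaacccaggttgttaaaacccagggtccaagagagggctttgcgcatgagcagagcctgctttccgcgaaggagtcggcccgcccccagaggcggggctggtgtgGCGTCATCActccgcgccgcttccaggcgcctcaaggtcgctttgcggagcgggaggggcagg
Ndufc1: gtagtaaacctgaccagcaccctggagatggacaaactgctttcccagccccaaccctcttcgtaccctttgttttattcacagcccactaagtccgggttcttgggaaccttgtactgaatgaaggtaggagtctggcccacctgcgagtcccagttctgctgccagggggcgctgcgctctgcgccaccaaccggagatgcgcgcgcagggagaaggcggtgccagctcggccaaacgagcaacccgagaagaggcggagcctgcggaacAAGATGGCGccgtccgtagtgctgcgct
Ndufs4: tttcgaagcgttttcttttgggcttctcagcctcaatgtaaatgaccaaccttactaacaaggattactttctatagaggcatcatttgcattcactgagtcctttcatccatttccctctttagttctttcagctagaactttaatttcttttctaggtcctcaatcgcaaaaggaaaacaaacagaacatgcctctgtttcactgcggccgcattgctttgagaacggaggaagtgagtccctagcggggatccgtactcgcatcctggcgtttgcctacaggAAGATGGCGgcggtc
Atp5e: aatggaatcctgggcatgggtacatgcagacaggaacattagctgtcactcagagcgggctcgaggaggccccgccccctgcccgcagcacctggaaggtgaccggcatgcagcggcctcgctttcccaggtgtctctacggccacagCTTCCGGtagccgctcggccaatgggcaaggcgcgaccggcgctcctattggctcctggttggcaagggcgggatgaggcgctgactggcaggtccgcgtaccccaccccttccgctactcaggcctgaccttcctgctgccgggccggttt
Atp5g3: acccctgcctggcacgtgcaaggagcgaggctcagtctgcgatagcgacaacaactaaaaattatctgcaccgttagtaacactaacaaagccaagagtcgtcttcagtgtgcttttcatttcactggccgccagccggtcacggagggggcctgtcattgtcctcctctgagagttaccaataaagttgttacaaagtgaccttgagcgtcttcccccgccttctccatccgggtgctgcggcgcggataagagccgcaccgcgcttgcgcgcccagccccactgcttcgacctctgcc

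In these windows, Ndufb6 holds an ETS match and an antioxidant response element match, Ndufc1 and Ndufs4 hold the YY1 match close to the start, and Atp5e holds an ETS match. The windows of Atp5g3, Cox5a and Uqcrfs1 held none of the 4 motifs. Over the subunit windows, the nuclear respiratory factor 1 motif occurred in 13.7%, against 3.51% of 21262 windows of protein-coding genes. The ETS motif occurred in 21.9% against 11.6%, the YY1 motif in 13.7% against 3.12% and the antioxidant response element in 43.8% against 41.7%. Tested subunits with the nuclear respiratory factor 1 motif had a median log2 fold change of 0.047 (10 genes, 0 that rose) and those without it 0.51 (55 genes, 7 that rose). For the antioxidant response element the medians were 0.25 with it (28 genes) and 0.52 without it (37 genes). The ETS motif gave 0.40 and 0.48, and the YY1 motif 0.61 and 0.46. These splits were not tested.

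Of the subunits encoded by mitochondrial DNA, 6 of the 7 tested had lower values. Of 13 genes 7 passed the filter, 3 fell and 0 rose, beside 1.2% of all tested genes that fell. At an unadjusted p under 0.05 from the edgeR test, 6 were lower and 0 higher, and DESeq2 called 0 higher and 5 lower, limma-voom 0 and 2 and limma-trend 0 and 1. Of all tested genes, 11.5% were lower at that unadjusted p, and 3.1% were called lower by DESeq2, 0.467% by limma-voom and 0.474% by limma-trend. In each of the 3 genes that fell, both DDI2-KO-labelled libraries lay below both WT libraries. mt-Nd5, a proton-pumping subunit of complex I, had 408119 and 341330 reads in the WT libraries, against 97350 and 101195 in those labelled DDI2-KO, and its log2 fold change was -1.51 (SE 0.18, edgeR quasi-likelihood test, Benjamini-Hochberg adjusted p = 0.0166). For mt-Cytb, the cytochrome b of complex III, counts were 826472 and 711258 in the WT libraries, against 272608 and 228265 in those labelled DDI2-KO, with a log2 fold change of -1.22 (SE 0.16, edgeR quasi-likelihood test, Benjamini-Hochberg adjusted p = 0.0189), not past the threshold with limma-trend. mt-Nd2 fell, with a log2 fold change of -1.01 (SE 0.19, edgeR quasi-likelihood test, Benjamini-Hochberg adjusted p = 0.0438), and passed in 9 of 15 alternatives, not with limma-voom, limma-trend, estimation without the robust option, offsets for GC content and length, or without WT library 1 or library 1 labelled DDI2-KO. Over the alternatives, its log2 fold change ran from -1.22 to -0.64, the latter with the offsets. mt-Nd6, which lies on the other strand of mitochondrial DNA, had the highest value at 0.85 (SE 0.38, edgeR quasi-likelihood test, Benjamini-Hochberg adjusted p = 0.243). Its groups overlapped, and with single libraries left out the value ranged from 0.23 to 1.28. The other 6 genes had at most 2 reads in any library. Of these, mt-Atp8 shares none of its stretches of 50 bases and had 0 reads in every library. For mt-Co2, mt-Co3, mt-Atp6, mt-Nd3 and mt-Nd4l at least 97.99% of stretches of 50 bases occur in transcripts annotated to other genes, and the levels of all 6 cannot be read from these counts. mt-Nd4 and mt-Co1 share 62.2% and 51.1% of their stretches in this way and are uncertain too.

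Summed over genes, the nuclear-encoded subunits measured 6910.0 and 7906 CPM in the WT libraries, against 11033 and 9717 CPM in the DDI2-KO-labelled libraries, a 1.40-fold difference of the means. The mitochondrially encoded genes summed to 106590 and 101082 CPM in the WT libraries, against 52117 and 62004 CPM in the DDI2-KO-labelled libraries, a ratio of 0.550. The nuclear sum divided by the mitochondrial sum was 0.0648 and 0.0782 in WT, against 0.212 and 0.157 in the DDI2-KO-labelled libraries. The mitochondrial sum in effect lacks 6 of the 13 genes, which had at most 2 reads in any library. Reads aligned to several places were not counted. They equalled 65.8% and 51.8% of gene-assigned reads in WT, against 49.2% and 47.3% in the DDI2-KO-labelled libraries. Their part in this ratio was not tested. Counted reads from all mitochondrial DNA genes made up 10.5% and 9.91% of gene-assigned reads in WT, against 5.27% and 6.34% in the DDI2-KO-labelled libraries. With these genes left out of the library sizes, the same 8 nuclear subunits were called and the median was 0.47. By complex, the summed nuclear level was 1.28-fold in complex I, 1.44-fold in complex II, 1.38-fold in complex III, 1.41-fold in complex IV and 1.47-fold in complex V, and within complex V the membrane Fo genes stood at 2.27-fold. Much of that came from Atp5g3, since the other 6 Fo genes together stood at 1.72-fold, with 2 of them lower in value.

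**Figure D4:**
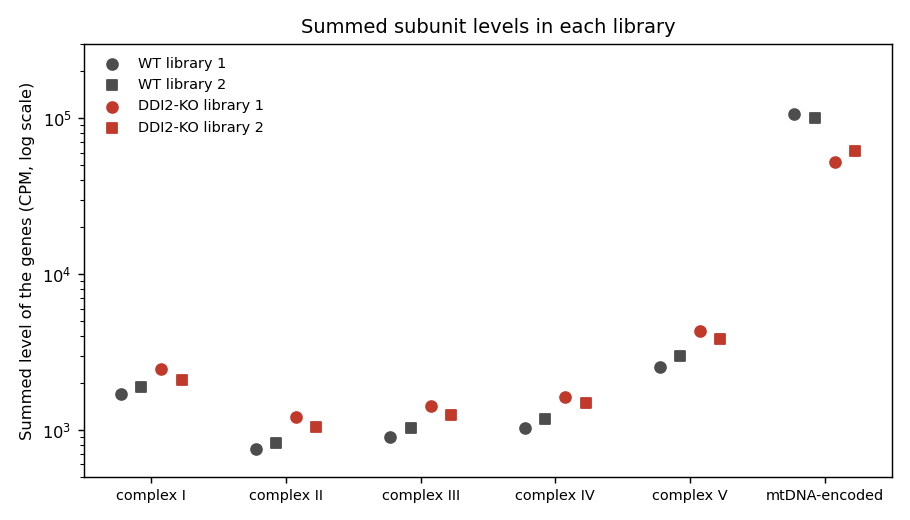
Summed level in CPM (y axis, log scale) of the nuclear genes of each complex and of the 13 subunit genes of mitochondrial DNA in each library. Of these 13 genes, 6 had at most 2 reads in any library. Complex V sums to 2538 and 2982 CPM in WT, against 4307 and 3833 CPM in the DDI2-KO-labelled libraries, while the mitochondrially encoded genes lie lower in both of the latter.

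Assembly factors, which build the complexes without staying in them, were listed apart. Of 60 listed, 56 were found by symbol and 55 tested, of which 2 rose and 0 fell, and those that rose are 3.64% of the list, beside 1.33% of all tested genes. The shares of all tested genes at an unadjusted p under 0.05, 12% higher and 11.5% lower, and the 3.71% called higher by DESeq2 are the background of this list and of the next ones. Among assembly factors 20 higher and 2 lower values had an unadjusted p under 0.05, and DESeq2 called 8 higher and 0 lower, and limma-voom and limma-trend each 2 and 0. Their median log2 fold change was 0.33, with 48 higher and 7 lower values. Coa6, a factor for copper delivery to complex IV, had 125 and 110 reads in the WT libraries, against 324 and 201 in those labelled DDI2-KO, and rose by a log2 fold change of 1.55 (SE 0.24, edgeR quasi-likelihood test, Benjamini-Hochberg adjusted p = 0.0299). Nubpl, which is needed for iron-sulfur clusters of complex I, had 6.39 and 7.48 CPM in WT, against 17.4 and 14.5 CPM in the DDI2-KO-labelled libraries, and a log2 fold change of 1.20 (SE 0.20, edgeR quasi-likelihood test, Benjamini-Hochberg adjusted p = 0.0338). Neither had overlapping groups, and neither passed without WT library 1 or without WT library 2. For Coa6 the Benjamini-Hochberg adjusted p in the edgeR quasi-likelihood test was 0.0735 without WT library 1 and 0.0602 without WT library 2, within a range of 7.53e-06 to 0.0735 over the alternatives, and for Nubpl these were 0.137 and 0.0600, within 7.76e-05 to 0.137. Cox17, a copper chaperone, had the lowest value of the list at -0.70 (SE 0.37, edgeR quasi-likelihood test, Benjamini-Hochberg adjusted p = 0.286).

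Electron carriers and their enzymes gave 1 gene that rose and 0 that fell of 21 tested, or 4.76% beside 1.33% of all tested genes that rose, with a median of 0.26. Among them 10 higher and 1 lower values had an unadjusted p under 0.05, and DESeq2 called 5 higher and 0 lower, and limma-voom and limma-trend each 0 and 0. The gene that rose was Gpd2, the mitochondrial glycerol-3-phosphate dehydrogenase, with 33.0 and 30.8 CPM in WT, against 55.6 and 65.3 CPM in the DDI2-KO-labelled libraries, and a log2 fold change of 0.92 (SE 0.16, edgeR quasi-likelihood test, Benjamini-Hochberg adjusted p = 0.0393). Its groups did not overlap, and it did not pass with limma-voom, limma-trend or estimation without the robust option. The Benjamini-Hochberg adjusted p in the edgeR quasi-likelihood test was 0.131 without WT library 1 and 0.144 without WT library 2, within a range of 0.000268 to 0.144 over the alternatives. Coq8b, a factor of ubiquinone synthesis, had the lowest value at -0.72 (SE 0.31, edgeR quasi-likelihood test, Benjamini-Hochberg adjusted p = 0.210). In the tricarboxylic acid cycle with pyruvate dehydrogenase, 2 of 17 genes rose and 0 fell, or 11.8% beside the same 1.33%, and the median was 0.44. In this list 9 higher and 0 lower values had an unadjusted p under 0.05, and DESeq2 called 4 higher and 0 lower, and limma-voom and limma-trend each 0 and 0. Suclg2, the GTP-forming succinyl-CoA ligase subunit, had 142 and 146 CPM in WT, against 266 and 250.5 CPM in the DDI2-KO-labelled libraries, with a log2 fold change of 0.84 (SE 0.17, edgeR quasi-likelihood test, Benjamini-Hochberg adjusted p = 0.0440). Dlat, the E2 component of pyruvate dehydrogenase, had 47.7 and 48.6 CPM in WT, against 79.9 and 84.1 CPM in the DDI2-KO-labelled libraries, with a log2 fold change of 0.77 (SE 0.15, edgeR quasi-likelihood test, Benjamini-Hochberg adjusted p = 0.0440). Neither had overlapping groups, and neither passed with limma-voom, limma-trend, upper-quartile factors or estimation without the robust option. For Suclg2 the Benjamini-Hochberg adjusted p in the edgeR quasi-likelihood test was 0.193 without WT library 1, 0.142 without WT library 2 and 0.0625 without library 1 labelled DDI2-KO, within a range of 0.000375 to 0.193 over the alternatives. For Dlat the Benjamini-Hochberg adjusted p in the edgeR quasi-likelihood test was 0.227 without WT library 1 and 0.173 without WT library 2, within a range of 0.00285 to 0.227 over the alternatives. Ogdh had the lowest value of the list at -0.27 (SE 0.16, edgeR quasi-likelihood test, Benjamini-Hochberg adjusted p = 0.345).

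Regulators of mitochondrial biogenesis had mostly lower values. Of 18 listed, 17 were tested, 0 rose and 0 fell in edgeR's test, with 1 higher and 5 lower at an unadjusted p under 0.05, and 12 had lower and 5 higher values (median -0.26). For these regulators, DESeq2 called 1 higher and 3 lower, and limma-voom and limma-trend each 0 and 0, beside 3.71% of all tested genes called higher and 3.1% called lower by DESeq2. Tfam, which packages and transcribes mitochondrial DNA, had the highest value, with 33.8 and 36.1 CPM in WT, against 52.3 and 56.0 CPM in the DDI2-KO-labelled libraries, and a log2 fold change of 0.63 (SE 0.15, edgeR quasi-likelihood test, Benjamini-Hochberg adjusted p = 0.0668). Ppargc1b, a coactivator of these programmes, had the lowest, with 3.33 and 4.24 CPM in WT, against 1.85 and 0.740 CPM in the DDI2-KO-labelled libraries, and a log2 fold change of -1.53 (SE 0.42, edgeR quasi-likelihood test, Benjamini-Hochberg adjusted p = 0.0868). Of the factors whose motifs were searched, Nrf1 had a log2 fold change of 0.14 (SE 0.21, edgeR quasi-likelihood test, Benjamini-Hochberg adjusted p = 0.722), which turned with offsets for GC content and length (-0.014) and without WT library 1 (-0.025). Gabpa had one of -0.28 (SE 0.17, edgeR quasi-likelihood test, Benjamini-Hochberg adjusted p = 0.361) and Yy1 one of 0.26 (SE 0.19, edgeR quasi-likelihood test, Benjamini-Hochberg adjusted p = 0.460). Nfe2l1, which encodes the NRF1 protein that DDI2 is known to cleave and which is distinct from nuclear respiratory factor 1, had a log2 fold change of 0.11, ranging from -0.24 to 0.47 with single libraries left out. Reads of the metallothionein genes, WT first, numbered 3271 and 1451 against 140 and 107 for Mt1, and 1743 and 424 against 24 and 23 for Mt2. The log2 fold changes of Mt1 and Mt2 were -3.84 and -5.08, with Benjamini-Hochberg adjusted p-values of 0.0186 and 0.0803 in the edgeR quasi-likelihood test. For Mt1 the Benjamini-Hochberg adjusted p in the edgeR quasi-likelihood test was 0.187 without library 1 labelled DDI2-KO and 0.185 without library 2 labelled DDI2-KO, within a range of 8.72e-28 to 0.187 over the alternatives. Mt2 passed in 6 of 16 alternatives, and DESeq2 and limma-trend called both genes lower while limma-voom called Mt1 alone.

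Markers of liver cell types were examined beside the subunits. None of the 7 hepatocyte markers passed the threshold in edgeR's test, with 0 at an unadjusted p under 0.05 and 0 by DESeq2, limma-voom or limma-trend, and their log2 fold changes ranged from -0.38 (SE 0.24, edgeR quasi-likelihood test, Benjamini-Hochberg adjusted p = 0.388) for Apoa1 to 0.29 for Ttr. Kupffer cell and macrophage markers, 5 of 6 with higher values and 0 called by edgeR (1 at an unadjusted p under 0.05, 1 by DESeq2 and 0 by limma-voom or limma-trend), summed to 668 and 578 CPM in WT, against 824 and 702 CPM in the DDI2-KO-labelled libraries, with Cd5l the most abundant, and log2 fold changes from -0.33 for Marco to 0.58 for Adgre1. The cholangiocyte markers, 4 of 5 tested with higher values and 0 called by edgeR (1 at an unadjusted p under 0.05), DESeq2, limma-voom or limma-trend, summed to 56.5 and 53.1 CPM in WT, against 70.5 and 68.8 CPM in the DDI2-KO-labelled libraries, led by Spp1, with log2 fold changes from -0.042 for Krt7, which turned with library totals alone and without library 2 labelled DDI2-KO, to 0.47 for Epcam, which ranged from 0.046 to 0.80 with single libraries left out. Stellate cell markers were lower in value for all 6 genes, from -0.58 for Lrat to -0.043 for Reln, although Reln turned in 4 alternatives, with 0 calls by edgeR (1 at an unadjusted p under 0.05), DESeq2, limma-voom or limma-trend, and sums of 423 and 434 CPM in WT, against 377 and 417 CPM in the DDI2-KO-labelled libraries, led by Dcn.

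Among sinusoidal endothelial markers 1 of 6 fell, the scavenger receptor gene Stab2, with 73.7 and 61.2 CPM in WT, against 32.9 and 29.9 CPM in the DDI2-KO-labelled libraries, and a log2 fold change of -1.10 (SE 0.17, edgeR quasi-likelihood test, Benjamini-Hochberg adjusted p = 0.0288). At an unadjusted p under 0.05 2 were lower and 0 higher, 2 were lower and 2 higher with groups that did not overlap, and DESeq2 called 0 higher and 1 lower, and limma-voom and limma-trend each 0 and 1. Of all tested genes 1.2% fell, 11.5% were lower at an unadjusted p under 0.05, 27.7% were lower and 28% higher without overlap, and 3.1% were called lower by DESeq2, 0.467% by limma-voom and 0.474% by limma-trend, which is the background of the red blood cell list too. For Stab2 the Benjamini-Hochberg adjusted p in the edgeR quasi-likelihood test was 0.109 without WT library 1, within a range of 1.79e-05 to 0.109 over the alternatives. The list summed to 391 and 360.0 CPM in WT, against 363 and 343 CPM in the DDI2-KO-labelled libraries, led by Clec4g, which had the highest value at 0.22. Of the 5 red blood cell markers 1 fell, Hba-a1, an alpha globin gene, with 25.6 and 47.6 CPM in WT, against 10.3 and 8.83 CPM in the DDI2-KO-labelled libraries, and a log2 fold change of -1.94 (SE 0.30, edgeR quasi-likelihood test, Benjamini-Hochberg adjusted p = 0.0338). In the red blood cell list 4 were lower at an unadjusted p under 0.05 and as many had groups that did not overlap, and DESeq2 called 0 higher and 3 lower, and limma-voom and limma-trend each 0 and 1. For Hba-a1 the Benjamini-Hochberg adjusted p in the edgeR quasi-likelihood test was 0.196 without library 1 labelled DDI2-KO and 0.213 without library 2 labelled DDI2-KO, within a range of 9.68e-08 to 0.213 over the alternatives. All 5 had lower values, up to -0.35 for Alas2, which turned without WT library 2, and the list summed to 109 and 210.1 CPM in WT, against 79.3 and 68.3 CPM in the DDI2-KO-labelled libraries, led by Hbb-bs, with WT library 2 the highest. The skeletal muscle list was near 0 apart from Mylpf (log2 fold change 0.22), the brown adipocyte list apart from Elovl3 (0.16) and Cox7a1, the exocrine pancreas list apart from Cela1 (0.020), each of these values except that of Cox7a1 turning in at least 1 alternative, and the white adipocyte list had at most 2 reads for any gene, with Plin1, Lep, Cfd and Retn at 0 in all 4 libraries. The part of cell composition in the subunit differences was not tested.

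Base composition separated the DDI2-KO-labelled libraries from each other. Across the 79 tested subunit genes (not replicates of one another), the log2 ratio of library 2 over library 1 had a Spearman correlation of -0.500 with the GC content of the transcript, and -0.481 across all tested genes. In WT these were 0.0575 and 0.0713. Of the 27 subunits with the highest GC content, from 54.6% to 61.1%, 26 were lower in library 2 than in library 1, and their median log2 fold change between the genotypes was 0.21, with 1 that rose. Among the 27 with the lowest GC content, up to 49.2%, the median was 0.51 and 5 rose. The 25 between them had the highest median, 0.55, with 2 that rose. The share of all tested genes called in these GC ranges was not taken, so these counts cannot be set against it. With offsets for GC content and length the medians were 0.20, 0.48 and 0.44, in the order given, so those between no longer had the highest. The log2 fold change of the subunits had a Spearman correlation of -0.279 with GC content and of 0.0574 with transcript length, over genes that share libraries and depth. Across all tested genes with an annotation these were 0.0442 and -0.113. The median log2 fold change was 0.31 for subunits with transcripts under 1000 bases and 0.55 for the longer ones, beside 0.041 and -0.019 over all tested genes of these lengths. The part of base composition in the counts of single subunits was not tested further.

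**Figure D5:**
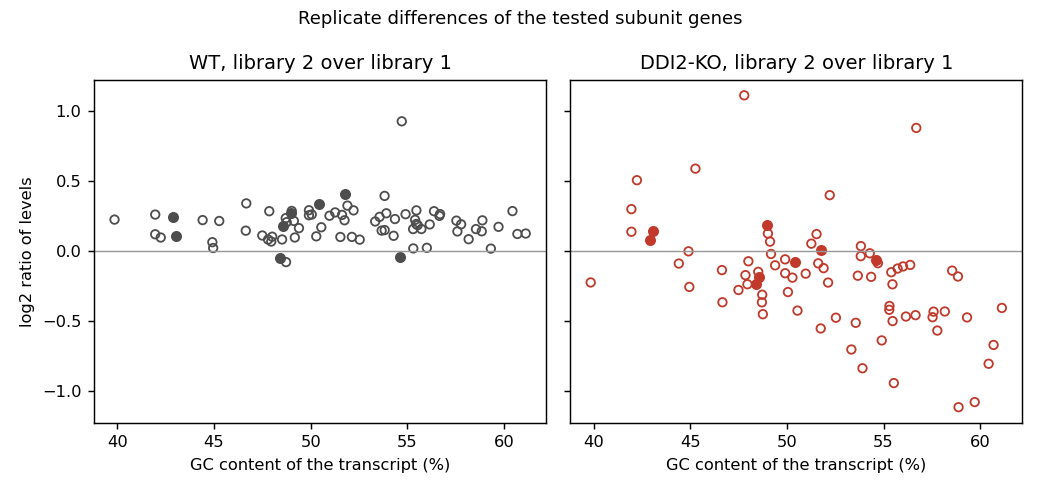
Log2 ratio of the level in library 2 over library 1 (y axis) against the GC content of the transcript in percent (x axis) for the 79 tested subunit genes, in WT (left) and in the DDI2-KO-labelled libraries (right). Filled points are the 8 genes that rose. In WT 76 genes lie above 0, and in the DDI2-KO-labelled libraries 62 lie below 0.

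Several subunits have processed pseudogenes, and reads that align to more than 1 place were set apart by the counting. Of the 85 subunit genes, 36 share at least 1 stretch of 50 bases with a transcript at another locus. Their median log2 fold change was 0.47 with 2 that rose, and that of the 43 tested genes without one was 0.49 with 6 that rose. Values were higher for 26 and lower for 10 of the 36, against 39 higher and 4 lower of the 43. This split was not tested. The 33 tested genes that share no stretch at any locus, their own included, had a lower median of 0.29, with 5 that rose. Atp5l, a membrane subunit of ATP synthase that shares 84.8%, had 39 and 38 reads in the WT libraries, against 13 and 25 in those labelled DDI2-KO, and Cox7c, which shares 53.0%, had 133 and 155 reads in the WT libraries, against 100 and 69 in those labelled DDI2-KO, and both have lower values that rest on few reads. Both were named after their values were seen, as were Cyc1, Sdha, Ndufb9, Atp5a1 and the peripheral stalk genes above. Of the genes that rose, Ndufs4, Uqcrfs1, Atp5e, Atp5g3 and Atp5mpl share no stretch, Ndufc1 shares 8.65% and Ndufb6 34.1%, the latter with a gene that overlaps its locus (Smim27).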

How the data were processed

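Messenger RNA of liver (TruSeq Stranded mRNA libraries) was measured in 4 libraries, 2 per group. The authors deposited whole-number read counts per gene. According to the submitters' processing notes, reads were trimmed with cutadapt 1.8, aligned to GRCm38 with STAR 2.5.2b and counted with HTSeq 0.6.1. The strand setting of the counting is not given in the sources used here, so overlapping genes on opposite strands are uncertain too. Reads on no gene equalled 5.11% and 4.70% of gene-assigned reads in WT, against 2.53% and 3.65% in the DDI2-KO-labelled libraries. Reads aligned to several places equalled 65.8% and 51.8%, against 49.2% and 47.3%. Reads on several genes equalled 2.496% and 2.54%, against 3.49% and 3.66%. All of these stayed out of library sizes and tests.

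Counts were fitted in R 4.3.3 with edgeR 4.0.16 (filterByExpr, TMM, robust glmQLFit, glmQLFTest, Benjamini-Hochberg adjustment over all tested genes, threshold 0.05). The SE is the size of the log2 fold change divided by the square root of F. Alternatives were RLE and upper-quartile factors, library totals, DESeq2 1.42.0, limma-voom and limma-trend (limma 3.58.1, prior count 2), no filter, a minimum mean of 1 CPM, estimation without the robust option, a block for the replicate number, lowess offsets (span 0.3) for GC content and transcript length, no mitochondrial DNA genes, and each library left out. Replicates differed beyond sampling noise, with chi-square per degree of freedom of 64.7 in WT and 34.7 in the DDI2-KO-labelled libraries. One planned list of cell type markers is left out of the results, for a reason unrelated to its values, so the marker lists given are not complete. The study describes biological replicates and the labels name replicates, without saying in so many words that each library is a separate animal. The p-values measure the spread between these libraries. Floors cover counting error only.

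A GENCODE annotation of GRCm38 matched 48349 of 48709 gene identifiers and gave positions, lengths and GC content. Stretches of 50 bases of each subunit transcript were searched in all other annotated transcripts. Promoters came from RefSeq. Members and lists were chosen with earlier results of these data known. Named genes are the subunits past the threshold, those with the highest level per length and the highest and lowest log2 fold change in each complex, the nearest outside the threshold, tissue-restricted isoform pairs, list genes past the threshold or at the ends of their list, Ddi2, Nfe2l1, Mt1, Mt2, Nrf1 and Gabpa, with Yy1 added later.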

Additional observations from a re-analysis of the deposited data

Results flagged for a closer look

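Reads that fell on more than 1 gene, which enter no gene's count, amounted to 3.49% and 3.66% of the reads on genes in the DDI2-KO-labelled libraries. Both shares are listed because they lie above those of the WT libraries, 2.496% and 2.54%, in reads that no comparison used. Their part in the subunit differences was not tested.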

How the results depend on the processing

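Over the 16 alternatives, the 63 named genes gave 880 values that kept their direction and their side of the threshold, 53 that kept only the direction and lost the threshold, 40 that kept the direction and newly passed, and 28 that turned. The median log2 fold change of the subunits stayed between 0.37 and 0.57. Among all tested genes, 346 passed, against 932 with DESeq2, 136 with limma-voom, 139 with limma-trend, 1544 without the filter on low counts, 152 without robust estimation and 772 under offsets for length and GC content. With single libraries left out, this number ranged from 153 to 631. The 8 subunits that rose became 23 with DESeq2, 26 without the filter and 13 with the offsets, and ranged from 2 to 15 with single libraries left out. Without the filter 1 subunit was called lower, beside 752 of all tested genes. The reported edgeR test called 0 lower, with 2 lower values at an unadjusted p under 0.05. The cause was not tested.

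All values that turned belong to genes that did not pass the threshold. With upper-quartile factors, log2 fold changes were -0.030 for Cela1 and -0.015 for Cox6a1. With library totals alone they were 0.0061 for Krt7 and 0.0059 for Reln. With the offsets, values were -0.12 for Cela1, -0.014 for Nrf1, 0.069 for Reln and 0.044 for Uqcr11. With single libraries left out, log2 fold changes ranged from -0.73 to 0.17 for Alas2, -0.57 to 1.04 for Cela1, -0.051 to 0.13 for Cox6a1, -0.20 to 0.058 for Cox7a2l, -2.55 to 4.38 for Elovl3, -0.20 to 0.10 for Krt7, -0.057 to 0.45 for Mylpf, -0.68 to 0.12 for Ndufa13, -0.064 to 0.45 for Ndufa6, -0.24 to 0.47 for Nfe2l1, -0.025 to 0.33 for Nrf1, -0.14 to 0.065 for Reln, -0.20 to 0.44 for Sdhb and -0.72 to 0.39 for Uqcr11. Some of the genes outside the threshold that did not turn varied widely for their size when single libraries were left out, with ranges of -0.69 to -0.11 for Apoa1, 0.46 to 0.72 for Atp5b, -1.53 to -0.66 for Atp5g2, 0.036 to 0.44 for Clec4g, -1.08 to -0.31 for Coq8b, -1.26 to -0.28 for Cox17, 0.30 to 0.74 for Cox4i1, 0.43 to 0.68 for Cox6b1, 0.83 to 1.75 for Cox7a1, 0.43 to 0.75 for Cox7a2, 0.19 to 0.38 for Ddi2, 0.046 to 0.80 for Epcam, -0.44 to -0.11 for Gabpa, -0.77 to -0.36 for Lrat, -0.47 to -0.19 for Marco, -5.74 to -3.82 for Mt2, -2.34 to -1.02 for Ppargc1b, 0.61 to 0.92 for Sdhc, 0.19 to 0.39 for Ttr, 0.17 to 0.46 for Uqcrh, 0.035 to 0.46 for Yy1 and 0.23 to 1.28 for mt-Nd6. Outside the threshold in the reported test, some genes passed in at least 2 alternatives, namely Adgre1 in 2, Atp5b in 2, Atp5g1 in 6, Mt2 in 6, Ndufa4 in 5, Ndufa4l2 in 2, Ppargc1b in 4, Sdhc in 4, Sdhd in 3 and Tfam in 4. The cause was not tested.

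The labels do not say whether same-numbered libraries are paired. The deviations of same-numbered libraries from their group means had a correlation of 0.0588 across tested genes. A correlation over all genes cannot show a pairing that touches few of them. With the replicate block, 1108 genes passed, 20 subunits were called higher and 1 lower. Of all tested genes, 553 were called higher in that fit, or 4.04%, and 555 lower.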

Other observations

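Genes linked to complex V but outside the list of subunit genes were measured as well. Usmg5, a small membrane subunit of ATP synthase, had 18.5 and 20.9 CPM in WT, against 18.2 and 17.5 CPM in the DDI2-KO-labelled libraries, with a log2 fold change of -0.14 (SE 0.17, edgeR quasi-likelihood test, Benjamini-Hochberg adjusted p = 0.653). Both DDI2-KO-labelled libraries were lower, by little, and 41.9% of its stretches of 50 bases are found in transcripts annotated to other genes. Atpif1, the inhibitory factor of ATP synthase, stood at -0.11 (SE 0.17, edgeR quasi-likelihood test, Benjamini-Hochberg adjusted p = 0.758), and Atp5s at 0.19 (SE 0.22, edgeR quasi-likelihood test, Benjamini-Hochberg adjusted p = 0.647). These genes were named after their values were seen. They do not enter any count of subunits.

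Precision is bounded by having only 2 libraries in each group, labelled as replicates. The 4 libraries differ in depth and in the share of reads from mitochondrial DNA. A transcript level is no measure of protein, of assembled complexes or of respiration, none of which was measured here. Sex and litter of each mouse were not given in the sources used here. Kdm5d, Uty, Ddx3y and Eif2s3y of the Y chromosome had 0 reads in all 4 libraries, so the groups did not differ in them. Xist, the transcript of the inactive X chromosome, was present in all 4, with 520.0 and 373 CPM in WT, against 47.5 and 143 CPM in the DDI2-KO-labelled libraries (edgeR quasi-likelihood test, Benjamini-Hochberg adjusted p = 0.120). Litter was not tested.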
